A study of Mus musculus with 16 samples.

Results

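Basement membrane genes were followed in endothelial cell lines of the mouse, labelled as null or positive for VE-cadherin (VEC, the product of Cdh5) and grown to low or full density. The set was given as 10 genes by name, of 13674 genes with a probe set of their own: the collagen IV chains Col4a1 and Col4a2, the laminin chains Lama4, Lamb1, Lamc1 and Lamb3, the linker Nid2, the proteoglycan Hspg2, and the collagens Col15a1 and Col18a1. A total of 19 probe sets on the array was annotated to these genes, 18 on chip A and 1 on chip B, and 15 of them passed the filter on low signal. Each of the 10 genes had at least 1 tested probe set. Of the 4 that were not tested, Col18a1, Lama4, Lamc1 and Nid2 each held 1, and the highest signal of any of these on any array was 119.

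The cells were endothelial lines that had been made from mouse embryonic stem cells, in which both copies of the VE-cadherin gene carried a null mutation. Both lines, VEC-null and VEC-positive, were collected sparse and confluent, after 36 h of starvation in MCDB 131 medium with 1% BSA, and RNA came from all 4 conditions in the same way. The origin of VEC in the VEC-positive cells and the number of clones are not stated in the sources used here. Each condition was 1 cRNA sample, made from 15 µg of total RNA and hybridised to 2 copies of each of 2 chip types, 16 arrays in all. The copies are technical, so each p value from the fit over the 4 groups measures the spread between hybridisations. It does not cover the spread between cultures. The additive model given later averages the copies and takes a difference between the density responses as error.

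A basement membrane is the thin sheet of matrix on which endothelial cells sit. Laminins, which are trimers of an alpha, a beta and a gamma chain, and collagen IV, a trimer that in vessels is mostly built from the products of Col4a1 and Col4a2, each form a network. Nidogens and the heparan sulfate proteoglycan perlecan (Hspg2) link both networks, and the multiplexin collagens XV and XVIII lie at the edge of the sheet. The C-terminal part of collagen XVIII is the source of endostatin.

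Col4a1 and Col4a2 lie head to head on mouse chromosome 8, and the promoter windows of both are shown because both genes had their lowest signal in the same condition. A window of Col15a1 and a window of Lamb3 are shown beside them because these genes had by far their highest signal in confluent VEC-positive cells. Windows run from 250 bases before to 50 bases after an annotated start, 5′ to 3′ on the strand of the gene, and come from RefSeq on GRCm38.p6. Of the 10 genes, 7 were matched to 9 windows, and Lama4, Lamc1 and Nid2 had no entry. Capitals mark matches, on either strand, to the motifs searched, which were the GC box GGGCGG, the CCAAT box CCAAT, the TATA box TATAAA, the AP-1 site TGANTCA, the FoxO site GTAAACA and the TCF site CTTTGA.
Col4a1, chr8:11312777-11313076, minus strand: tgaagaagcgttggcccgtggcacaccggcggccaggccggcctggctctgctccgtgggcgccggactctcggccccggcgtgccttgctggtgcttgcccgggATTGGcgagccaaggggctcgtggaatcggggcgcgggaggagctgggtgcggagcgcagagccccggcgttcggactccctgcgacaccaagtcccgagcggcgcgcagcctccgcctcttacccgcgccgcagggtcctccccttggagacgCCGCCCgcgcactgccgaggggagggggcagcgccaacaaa
Col4a2, chr8:11312555-11312854, plus strand: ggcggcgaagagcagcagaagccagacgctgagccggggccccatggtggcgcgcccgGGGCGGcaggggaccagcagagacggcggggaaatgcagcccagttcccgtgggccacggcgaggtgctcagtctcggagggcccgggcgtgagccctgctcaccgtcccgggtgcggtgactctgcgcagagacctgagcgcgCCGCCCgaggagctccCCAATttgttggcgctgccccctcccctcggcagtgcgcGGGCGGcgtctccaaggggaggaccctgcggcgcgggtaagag
Col15a1, chr4:47207762-47208061, plus strand: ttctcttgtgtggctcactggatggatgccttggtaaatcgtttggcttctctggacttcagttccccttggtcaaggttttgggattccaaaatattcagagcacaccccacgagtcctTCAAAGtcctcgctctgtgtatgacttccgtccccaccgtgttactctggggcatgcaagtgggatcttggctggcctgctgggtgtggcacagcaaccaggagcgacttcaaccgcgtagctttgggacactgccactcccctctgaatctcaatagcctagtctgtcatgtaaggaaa
Lamb3, chr1:193301744-193302043, plus strand: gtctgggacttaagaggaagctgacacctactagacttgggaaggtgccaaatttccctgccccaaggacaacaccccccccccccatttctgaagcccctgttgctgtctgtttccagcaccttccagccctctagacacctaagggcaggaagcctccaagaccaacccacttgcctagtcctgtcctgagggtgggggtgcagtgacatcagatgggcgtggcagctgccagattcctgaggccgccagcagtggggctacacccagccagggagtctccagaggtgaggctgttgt

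The starts of Col4a1 and Col4a2 lay 21 bases apart, and their gene models overlapped by 85 bases. Their windows shared 78 bases read from opposite strands. GC content was 74% in the Col4a1 window and 73.7% in the Col4a2 window, against a median of 52.7% over 32851 windows of the same length. The Col4a1 window held 1 GC box and 1 CCAAT box, and the Col4a2 window held 3 GC boxes and 1 CCAAT box. The GC box of Col4a1 lies in the shared bases and is the same site as 1 of the 3 of Col4a2. Col15a1, at 52.3% GC, held 1 TCF site and none of the other motifs, and the Lamb3 window shown, at 59.3% GC, held none of the 6. Another Lamb3 window, chr1:193301993-193302292, also held none. The gene model of Lamb3 begins upstream of both, at 193294353. Over all windows, 35.7% held a GC box, 37.4% a CCAAT box, 16% a TCF site, 13.6% a TATA box, 7.81% an AP-1 site and 3.65% a FoxO site. The windows of Hspg2, with 5 GC boxes, and of Lamb1, with 2 GC boxes and 1 CCAAT box, are given by their counts. These matches describe letters in a window and say nothing about binding.

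Values are MAS5 signals, a linear intensity that was scaled to a target of 500 on each array. A log2 change is the difference of log2(signal + 50), with the standard error (SE) of the limma fit, so that folds of dim genes are understated. A gene passed when its adjusted p was below 0.05 and its log2 change was at least 1 in size. Correlations between the copies of a condition ran from 0.951 to 0.989. Gapdh control signals were lowest on the arrays of confluent VEC-positive cells, 12788 and 12920 on chip A, where the other conditions had 16729 to 21421, and the part of this in results that turn on that condition was not tested. The Cdh5 probe set read 1268 ± 18.5 when sparse and 2608 ± 140 when confluent in the VEC-null line, while the VEC-positive line gave 1399 ± 92.4 and 2566 ± 57.6 in that order (SD, n = 2 copies). Its log2 difference between the lines was -0.02 (SE 0.09, limma adjusted p 0.87) when confluent. Because the labels do not state which part of Cdh5 was deleted, this reading cannot serve as a check of them, and every direction between the lines below rests on the labels. Of 12 endothelial markers, 11 were on the array and all 11 passed the filter on low signal.

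In VEC-null cells 5 of 10 rose with confluence, Nid2, Lama4, Col4a2, Col15a1 and Col4a1, where 9.22% of 9224 tested genes rose. In VEC-positive cells 5 of 10 rose, Col15a1, Lamb3, Lama4, Nid2 and Hspg2, where 8.63% of all genes rose. None of the 10 fell with confluence in either line by the limma test (background 7.84% and 7.31%). At an unadjusted p below 0.05, 0 of 10 were lower in VEC-null and 1, Lamb1, in VEC-positive cells. The median log2 change of the 10 was 0.85 in VEC-null and 0.88 in VEC-positive cells, against -0.01 and 0.04 over all genes. Col15a1, Nid2 and Lamb3 passed the filter on low signal only through confluent cells, so their difference from sparse cells is partly set by the filter. In bulk RNA, fewer cells that express a gene and less RNA per cell cannot be told apart.

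**Figure D1:**
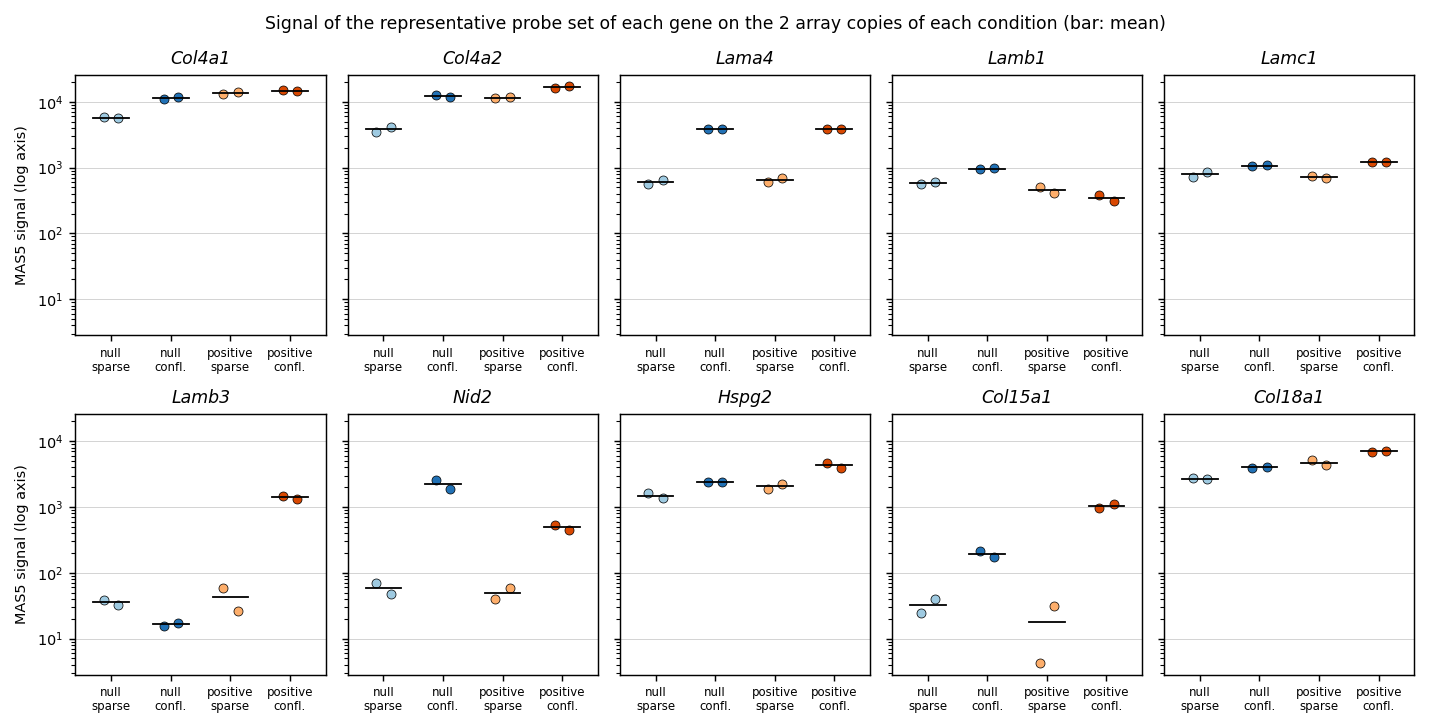
MAS5 signal (log axis) of the representative probe set of each gene on both array copies of the 4 conditions, with a bar at the mean. Lama4 was high in both confluent groups, Lamb3 in confluent VEC-positive cells at 1492 and 1308, and Col4a1 and Col4a2 were lowest in sparse VEC-null cells; levels of different genes come from different probes and are not comparable.

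Between the lines at confluence, Lamb3 and Col15a1 were higher in VEC-positive cells, 2 of 10 (background 4.6%), and Nid2 and Lamb1 were lower, 2 of 10 (background 3.46%). In sparse cells the same contrast gave Col4a1 and Col4a2 as higher, 2 of 10 (background 5.9%), and 0 as lower by the limma test (background 4.37%), with 1 lower at an unadjusted p below 0.05, Lamb1. The median log2 change of the 10 was 0.39 at confluence and 0.09 in sparse culture, where all genes had -0.01 and -0.03. The genes that passed between the lines were the collagen IV chains when sparse, and a nidogen, a collagen and laminin beta chains when confluent. This split depends on the size required. Below it, Col18a1 differed by 0.79 and 0.81 and Hspg2 by 0.47 and 0.8 when sparse and confluent (limma adjusted p at most 0.012). Col4a1 and Col4a2 still differed by 0.35 and 0.43 when confluent (limma adjusted p 0.0051 and 0.0045). The density response itself differed between the lines for 5 of 10 genes. It was greater in VEC-positive cells for Lamb3 and Col15a1 (2 of 10, background 6.5%) and less for Nid2, Col4a2 and Lamb1 (3 of 10, background 6.21%). Lamb3 passed the filter on low signal only through confluent VEC-positive cells. Its place in the counts at confluence and for the density response is therefore partly set by the filter. The 10 genes were also chosen with earlier results of these data known.

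**Figure D2:**
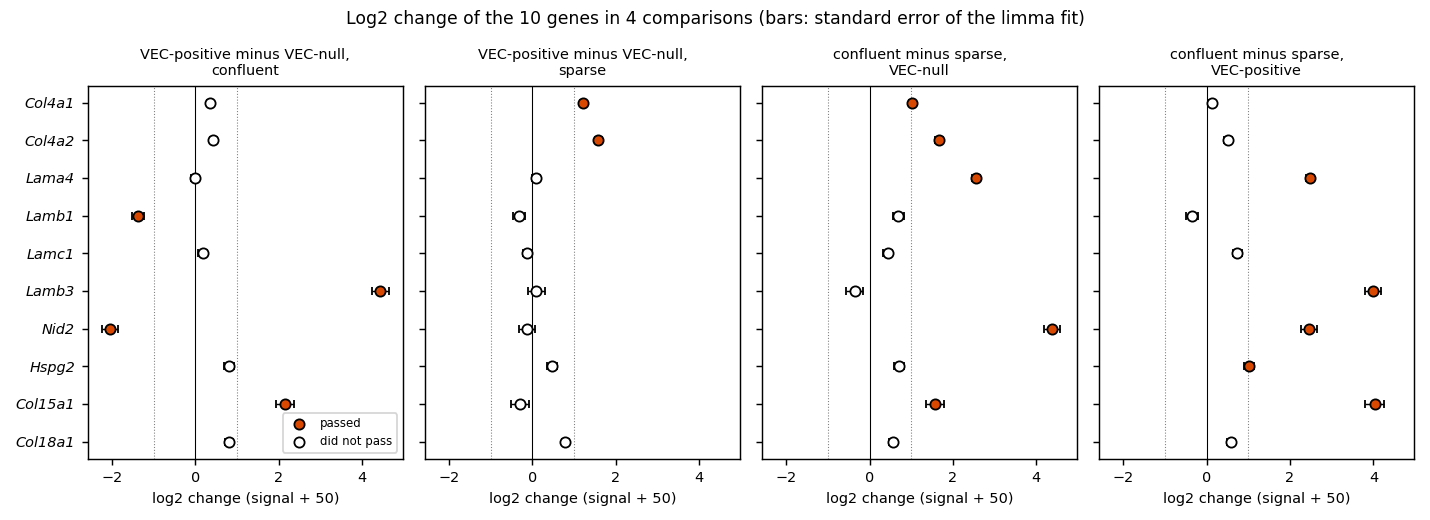
Log2 change of the 10 genes in the 4 comparisons, with the SE of the limma fit as bars, filled points for genes that passed and dotted lines at a log2 change of 1 in either direction. Collagen IV stood out in sparse cells, at 1.22 and 1.58, and Lamb3, Col15a1, Nid2 and Lamb1 in confluent cells.

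Collagen IV was lowest in sparse VEC-null cells. Col4a1, which encodes the alpha1 chain, had signals of 5928 and 5597 in sparse and 11205 and 12032 in confluent VEC-null cells, while VEC-positive cells had 13053 and 13978 when sparse and 15019 and 14575 when confluent. The 4 conditions did not overlap, and sparse VEC-null cells stood at 38.9% of the highest condition, confluent VEC-positive cells. Col4a1 was 2.33-fold higher in VEC-positive than in VEC-null cells when sparse (log2 1.22, SE 0.07, limma adjusted p 2.7e-06). When confluent the log2 difference was 0.35 (SE 0.07, limma adjusted p 0.0051), below the size required. Confluence gave a log2 change of 1.01 in VEC-null cells (SE 0.07, limma adjusted p 3e-06), at the edge of the threshold, and of 0.13 in VEC-positive cells (SE 0.07, limma adjusted p 0.16). Leaving out the second copy of sparse or of confluent VEC-null cells moved the first of these to 0.96 and 0.95, quantile normalisation to 0.97 and median centring to 0.86, all below the size required. The difference between the density responses was -0.87 (SE 0.1, limma adjusted p 0.00031), which did not reach the size required.

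Col4a2, which encodes the alpha2 chain, had signals of 3533 and 4200 in sparse and 12539 and 12072 in confluent VEC-null cells. In VEC-positive cells it had 11450 and 11814 when sparse and 16081 and 17209 when confluent. Again no conditions overlapped, and sparse VEC-null cells stood at 23.2% of the highest. Its order differed from that of Col4a1 in the middle, where confluent VEC-null cells lay above sparse VEC-positive cells. Col4a2 rose 3.17-fold with confluence in VEC-null cells (log2 1.66, SE 0.09, limma adjusted p 4.2e-07), while in VEC-positive cells the change was 0.51 (SE 0.09, limma adjusted p 0.001). In sparse cells it was 2.99-fold higher in the VEC-positive line (log2 1.58, SE 0.09, limma adjusted p 2e-06). The density responses differed by -1.15 (SE 0.12, limma adjusted p 0.00021), or -0.70 after quantile normalisation, which no longer passed. Over the 8 chip A arrays, Col4a1 and Col4a2 correlated with r = 0.971, a description over 4 cRNA samples with 2 copies each.

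Genes on chromosome 8 as a whole were somewhat higher in the VEC-positive line, with a median log2 difference of 0.29 when confluent and 0.23 when sparse over 519 genes. For the 40 tested genes nearest to Col4a1 the medians were 0.27 and 0.23. With the chromosome median or the median of the nearest genes taken off, the sparse difference of Col4a1 was 0.99, just under the size required, and that of Col4a2 was 1.35. In confluent cells the remainder of Col4a1 was 0.08 and that of Col4a2 was 0.18 after the nearest genes were taken off. Copy number was not tested.

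**Figure D3:**
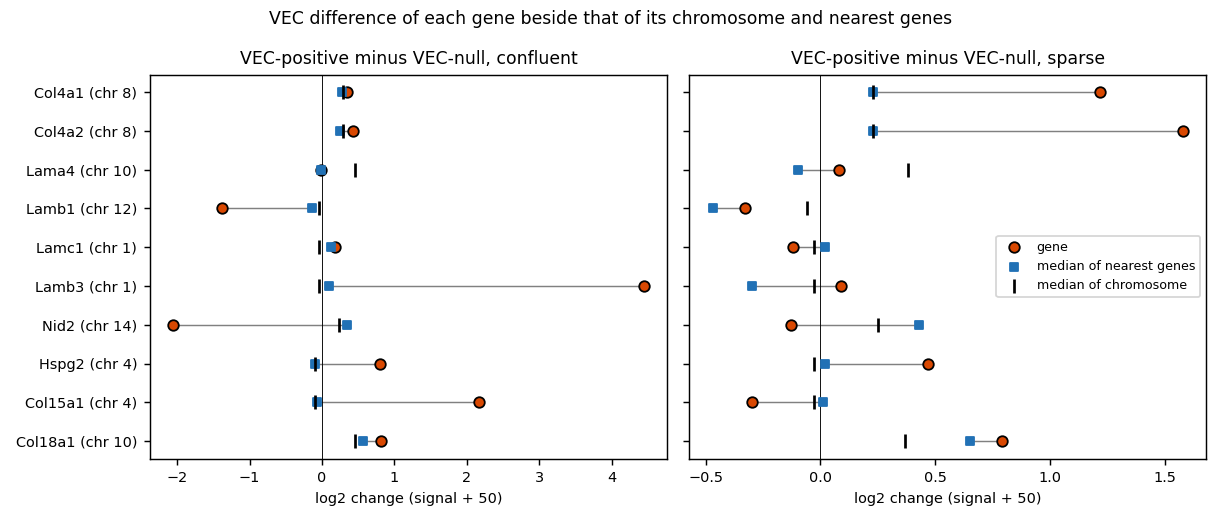
Log2 difference between VEC-positive and VEC-null cells, confluent on the left and sparse on the right, for each gene (circles), the median of its nearest tested genes (squares) and the median of its chromosome (vertical ticks). Col4a1 and Col4a2 lay far from both medians in sparse cells and near them in confluent cells, Col18a1 lay near the median of its nearest genes in both, and the horizontal axes differ between the panels.

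Lama4, the alpha chain of laminin-411 and a main laminin alpha chain of endothelium, was high in confluent cells of both lines. Its signals were 573 and 658 in sparse and 3899 and 3832 in confluent VEC-null cells, and 614 and 690 in sparse and 3847 and 3807 in confluent VEC-positive cells. Both confluent groups lay far above both sparse groups, and the lines overlapped at each density. Lama4 rose 5.89-fold with confluence in VEC-null cells (log2 2.56, SE 0.1, limma adjusted p 6.1e-08) and 5.53-fold in VEC-positive cells (log2 2.47, SE 0.1, limma adjusted p 7.5e-08). The responses differed by -0.09 (SE 0.14, limma adjusted p 0.65). Between the lines the log2 difference was -0.01 when confluent and 0.08 when sparse, each with an SE of 0.1. Chromosome 10, which carries Lama4, had a median difference of 0.45 between the lines in confluent cells, but the 40 tested genes nearest to Lama4 had -0.02.

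Lamc1, the gamma1 chain shared by most laminins, also had its higher signals in confluent cells but changed less. It had 718 and 860 in sparse and 1050 and 1104 in confluent VEC-null cells, and 750 and 687 in sparse and 1240 and 1207 in confluent VEC-positive cells. Confluent and sparse groups did not overlap in either line, and the sparse groups of the lines did. The log2 change with confluence was 0.43 in VEC-null cells (SE 0.11, limma adjusted p 0.01) and 0.73 in VEC-positive cells (SE 0.11, limma adjusted p 0.0005), both below the size required. Between the lines it was 0.18 when confluent (SE 0.11, limma adjusted p 0.26).

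Lamb1, the beta1 chain that pairs with gamma1, ran the other way between the lines. Its signals were 564 and 597 in sparse and 953 and 988 in confluent VEC-null cells, and 502 and 407 in sparse and 378 and 311 in confluent VEC-positive cells. The 4 conditions did not overlap, with confluent VEC-null cells highest and confluent VEC-positive cells lowest. In confluent cells Lamb1 was 2.6-fold lower in the VEC-positive line (log2 -1.38, SE 0.14, limma adjusted p 7.1e-05). The density responses differed by -1.05 (SE 0.19, limma adjusted p 0.0032), from 0.69 in VEC-null to -0.35 in VEC-positive cells, neither of which passed. Without the first copy of sparse or the second copy of confluent VEC-positive cells this difference was -0.91 and -0.93, below the size required.

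The other Lamb1 probe set had signals of 592 and 509, 885 and 702, 349 and 429, and 446 and 372 in the same order of conditions. It pointed the same way in confluent cells with a smaller change of -0.87 (SE 0.16, limma adjusted p 0.0023), which did not pass. For it the difference between density responses was -0.42 (SE 0.22, limma adjusted p 0.19), so both calls rest on the representative probe set. The names of the representative probe sets of Lamb1, Lamc1 and Nid2 carry an Affymetrix suffix for probes shared with other transcripts, and their signals may include these.

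Lamb3, the beta3 chain of laminin-332, a laminin best known from epithelia, stood out in confluent VEC-positive cells. Its signals were 38.5 and 32.2 in sparse and 15.6 and 17.5 in confluent VEC-null cells, and 58.1 and 26.7 in sparse and 1492 and 1308 in confluent VEC-positive cells. Only the last group exceeded the filter level of 160, so the gene was tested because of that group and had to differ. It was 21.7-fold higher in VEC-positive than in VEC-null cells when confluent (log2 4.44, SE 0.2, limma adjusted p 6.6e-07), and 15.9-fold higher in confluent than in sparse VEC-positive cells (log2 3.99, SE 0.2, limma adjusted p 2.9e-07). In sparse cells the lines differed by 0.09 (SE 0.2), and confluence gave -0.36 in VEC-null cells (SE 0.2, limma adjusted p 0.17). The density responses differed by 4.35 (SE 0.28, limma adjusted p 1.7e-05).

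The other Lamb3 probe set was also highest in confluent VEC-positive cells, with 426 and 372 there and 15.3 to 28.4 on the arrays of the other 3 conditions. Its log2 difference between the lines in confluent cells was 2.54 (SE 0.19, limma adjusted p 1.3e-05). Lama3, the alpha chain of laminin-332, was not above the filter level in any condition, with group means from 17.2 to 34.6. Itgb4, the beta chain of the laminin-332 receptor integrin alpha6beta4, had 369 ± 38.3 in confluent VEC-positive cells and 28.6 ± 1.8 in confluent VEC-null cells (SD, n = 2; log2 2.41, SE 0.19, limma adjusted p 2.2e-05). Like Lamb3, Itgb4 passed the filter on low signal only through confluent VEC-positive cells, so it too had to differ. Of 7 epithelial markers on the array, 2 passed the filter, and the summed signal of the 7 was 530 to 580 in confluent VEC-positive cells and 496 to 688 in confluent VEC-null cells. Most of the sum in the VEC-positive line came from Cdh1, which passed the filter and read 407 there. Its mean was 395 in the VEC-null line at the same density. The other markers were low in confluent VEC-positive cells, with Krt18 at 69.5, Krt8 at 25.9 and Krt5 at 16.6. Epcam was at 16.1, Krt14 at 14.1 and Krt19 at 5.6.

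Nid2, which links laminin to collagen IV, was low in sparse cells and high in confluent cells, more so in the VEC-null line. Its signals were 69.5 and 47.6 in sparse and 2531 and 1900 in confluent VEC-null cells, and 39.8 and 58.6 in sparse and 535 and 450 in confluent VEC-positive cells. The confluent groups were apart from each other and from the sparse groups, which overlapped. Nid2 rose 20.8-fold with confluence in VEC-null cells (log2 4.38, SE 0.19, limma adjusted p 1e-07) and 5.48-fold in VEC-positive cells (log2 2.45, SE 0.19, limma adjusted p 4.8e-06). In confluent cells it was 4.15-fold lower in the VEC-positive line (log2 -2.05, SE 0.19, limma adjusted p 4.5e-05). The responses differed by -1.92 (SE 0.26, limma adjusted p 0.00071). The chip B probe set of Nid2 had signals from 3.9 to 70.2 and was not tested.

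The smooth muscle and fibroblast markers did not share a pattern. Postn had a mean signal of 705 in confluent VEC-null cells and 5.2 to 10.9 in the other conditions. Pdgfrb had 328 in confluent VEC-null cells against 9.5 to 13, and both passed the filter only through that condition. Dcn was highest in confluent VEC-positive cells, at 586 against 231 in confluent VEC-null cells. In VEC-null cells, Acta2 had 371 when sparse and 123 when confluent, and Tagln 151 and 44.2. Over all 12 smooth muscle and fibroblast markers, 7 passed the filter, and the summed signal was 2651 to 2804 in confluent VEC-null cells and 1596 to 2135 in the other conditions. Their part in the Nid2 and Lamb1 differences was not tested.

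Hspg2, the core protein of perlecan, was highest in confluent VEC-positive cells. It had signals of 1610 and 1359 in sparse and 2435 and 2425 in confluent VEC-null cells, while VEC-positive cells had 1894 and 2274 when sparse and 4632 and 3931 when confluent. No conditions overlapped. Confluence raised it 2.03-fold in VEC-positive cells (log2 1.02, SE 0.12, limma adjusted p 9.5e-05), at the edge of the threshold. Leaving out the first copy of sparse or of confluent VEC-positive cells gave 0.89 and 0.91, and median centring gave 0.83, all short of the size required. In VEC-null cells the change was 0.7 (SE 0.12, limma adjusted p 0.0011). In confluent cells the lines differed by 0.8 (SE 0.12, limma adjusted p 0.00088), which did not reach the size required.

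Of the multiplexins, Col15a1 was highest in confluent VEC-positive cells. Its signals were 24.4 and 40.3 in sparse and 212 and 175 in confluent VEC-null cells, and 4.3 and 31.7 in sparse and 977 and 1104 in confluent VEC-positive cells. Both confluent groups lay apart from each other and from the sparse groups, which overlapped. Col15a1 rose 16.3-fold with confluence in VEC-positive cells (log2 4.03, SE 0.22, limma adjusted p 5.1e-07) and 2.96-fold in VEC-null cells (log2 1.57, SE 0.22, limma adjusted p 0.00026). With an offset of 200 in place of 50, the change in VEC-null cells was 0.76 and no longer passed. In confluent cells it was 4.48-fold higher in the VEC-positive line (log2 2.16, SE 0.22, limma adjusted p 8.8e-05), and in sparse cells the difference was -0.3 (SE 0.22, limma adjusted p 0.31). The responses differed by 2.46 (SE 0.31, limma adjusted p 0.00046).

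Col18a1 was higher in the VEC-positive line at both densities, below the size required. The representative probe set had 2743 and 2666 in sparse and 3941 and 4049 in confluent VEC-null cells, and 5148 and 4311 in sparse and 6968 and 7134 in confluent VEC-positive cells. The conditions did not overlap. The lines differed by 0.81 when confluent (SE 0.09, limma adjusted p 0.00015) and 0.79 when sparse (SE 0.09, limma adjusted p 0.00013). The other 3 tested probe sets gave 1.07, 1.18 and 1.1 in confluent cells and all passed there (limma adjusted p 4.4e-05, 1.9e-05 and 6.9e-05), so the call depends on the probe set. The 40 tested genes nearest to Col18a1 on chromosome 10 had median differences of 0.56 and 0.65, and with these taken off the representative probe set was left with 0.25 and 0.14. The density responses of the lines differed by 0.02 (SE 0.13) for the representative probe set. The other 3 gave 0.52, 0.35 and 0.37 (limma adjusted p 0.019, 0.073 and 0.095), none of the size required.

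**Figure D4:**
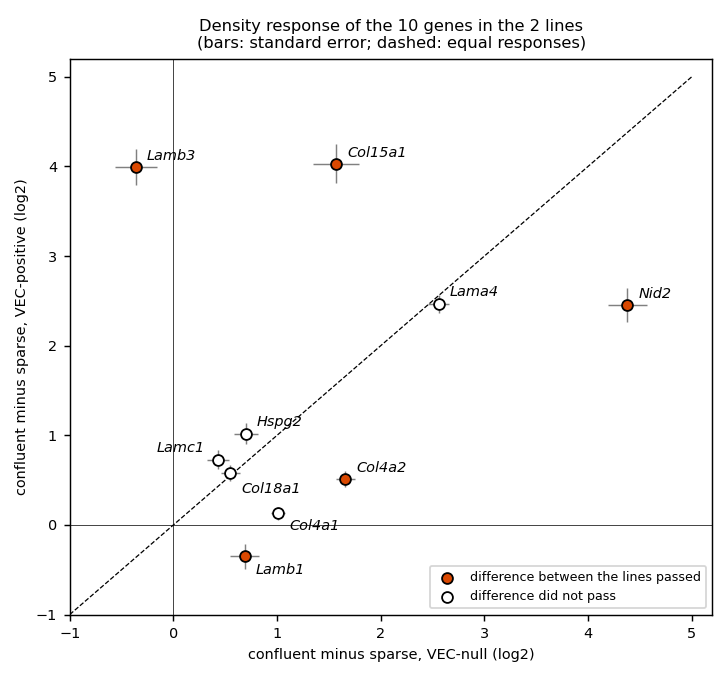
Log2 change from sparse to confluent in VEC-null cells (horizontal) and in VEC-positive cells (vertical) for the 10 genes, with SE bars and a dashed line of equal responses. Lama4 lay on the line at 2.56 and 2.47, Lamb3 and Col15a1 lay above it, and Nid2, Col4a2 and Lamb1 below it, with filled points where the difference between the lines passed.

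When the copies were averaged and the 4 cRNA samples were fitted with additive effects of VEC and density, 3 of 10 genes passed for density. They were Nid2 (log2 3.42, limma adjusted p 0.00081), Lama4 (log2 2.51, limma adjusted p 0.00088) and Col15a1 (log2 2.8, limma adjusted p 0.0086), where 6.15% of all genes rose with density. With the filter at the 75th percentile the call of Col15a1 was lost (limma adjusted p 0.19) and Col4a2 passed in its place (log2 1.09, limma adjusted p 0.026). None of the 10 fell in it (background 4.26%), and at an unadjusted p below 0.05 also 0 did. For VEC 0 of 10 passed in this limma model (background 1.55% higher and 0.726% lower). At an unadjusted p below 0.05, 4 were higher and 2 lower, and the lowest limma adjusted p was 0.23. The share of all genes at that unadjusted cutoff is not given here, so no excess can be read from these counts. This model has 1 residual degree of freedom per chip and takes a difference between the density responses as error.

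Endothelial markers moved with density as well. Of 11 on the array, 9 rose with confluence in VEC-null cells (background 9.22%) and 7 in VEC-positive cells (background 8.63%). The summed signal of the 11 in VEC-null cells was 14219 to 14292 when sparse and 55961 to 56296 when confluent. In VEC-positive cells it was 22566 to 25718 when sparse and 47554 to 48171 when confluent. Between the lines in sparse cells, where collagen IV was higher in VEC-positive cells, 2 of the 11 were also higher in that line (background 5.9%). They were Tie1 (log2 1.37, limma adjusted p 8.6e-06) and Emcn (1.14, 3.7e-06), and the median of the 11 was 0.38. Another Tie1 probe set differed less, at 1004 in sparse VEC-null and 1383 in sparse VEC-positive cells. The other Emcn probe sets read 3358 and 6435, and 224 and 485, in that order. By the limma test 0 of the 11 were lower (background 4.37%). However, Kdr, at 595 and 289, Tek, Flt1 and Pecam1 had lower means in sparse VEC-positive cells. In confluent cells the median of the 11 was -0.17. Of 11 markers of parietal and visceral endoderm, an embryonic layer that lays down much basement membrane, 3 passed the filter. The summed signal of these 11 was 3199 to 4036 in both sparse groups, 6114 to 6573 in confluent VEC-null and 7275 to 7874 in confluent VEC-positive cells. Most of it came from Dab2 and Sox7, while Afp, Ttr, Alb and Apoa1 stayed at group means of 18.8 to 95.4. Gata4, which also passed the filter, differed between the lines when confluent, at 225 in VEC-null and 536 in VEC-positive cells. Its chip B probe set read 245 and 1124 there. The part of these shifts in the density responses and line differences of the basement membrane genes was not tested.

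The genes with the most similar pattern over the 8 chip A arrays were sought for 3 of the set, as a description over 4 cRNA samples with 2 copies each. For Col4a1 they were Susd6 (r = 0.993), Palm (0.991) and Anapc2 (0.989), of 6354 probe sets searched. Lamb3 was matched most closely by Bgn, the matrix proteoglycan biglycan (0.996), Vwf, the endothelial von Willebrand factor (0.994), and Ahrr (0.990), of 6353. Vwf had a mean signal of 2516 in confluent VEC-positive cells and 14.5 to 42.1 in the others, which is the pattern of Lamb3. For Hspg2 they were Nfatc3 (0.991), Atxn7l3b (0.985) and Atg13 (0.984). Within the set, Lama4 ran with Lamc1 (r = 0.940) and Nid2 (0.917), Col15a1 with Lamc1 (0.922) and Hspg2 (0.906), and Lamb3 against Lamb1 (-0.724).

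Of 31 other structural basement membrane genes, 26 were on the array and 14 were tested. In confluent cells 6 of the 14 were lower in the VEC-positive line (background 3.46%) and 0 higher (background 4.6%), with a median of -0.41. The 10 genes above had 2 in each direction. Col4a5, a collagen IV chain of another network, was lower by a log2 change of -2.38 (limma adjusted p 1.8e-05), Npnt, an integrin ligand, by -1.93 (0.00081) and Agrn, the proteoglycan agrin, by -1.75 (8.3e-06). Another Agrn probe set gave -1.03 (limma adjusted p 0.00017). Col4a5 and Npnt passed the filter on low signal only through confluent VEC-null cells, at 275 and 443, so their place among the 6 is partly set by the filter. In sparse cells 4 were higher (background 5.9%) and 1 lower (background 4.37%). Fbln2 (2.12), Tinagl1 (1.64) and Nid1 (1.39), the other nidogen, were higher in the VEC-positive line, and Col4a5 (-1.3) was lower. With confluence 5 of 14 rose (background 9.22%) and 0 fell (background 7.84%) in VEC-null cells, led by Agrn (2.94), Npnt (2.56) and the netrin Ntn1 (1.95). In VEC-positive cells Agrn (2.14) and Ntn1 (1.07) rose, and Fbln2 (-2.35) and Nid1 (-2.01) fell.

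The nidogens thus had unlike patterns in these samples, compared here by each gene's own changes. Nid1 read 222 ± 49.1 when sparse and 221 ± 14.7 when confluent in VEC-null cells, while VEC-positive cells gave 665 ± 143 and 128 ± 30.4 (SD, n = 2). Confluence lowered it in VEC-positive cells (limma adjusted p 2.8e-05), where Nid2 rose. Lamb2, the beta chain that can replace beta1, was higher in sparse VEC-positive cells by 1.02 (limma adjusted p 0.00074) on chip A, but its chip B probe set gave -0.19 (limma adjusted p 0.11). Lama5, the other main endothelial alpha chain, rose with confluence in VEC-null cells (log2 1.17, limma adjusted p 1.1e-05) and had 0.23 in VEC-positive cells (limma adjusted p 0.089). Another tested Lama5 probe set rose less in VEC-null cells, from 199 to 350, and read 281 and 344 in VEC-positive cells.

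**Figure D5:**
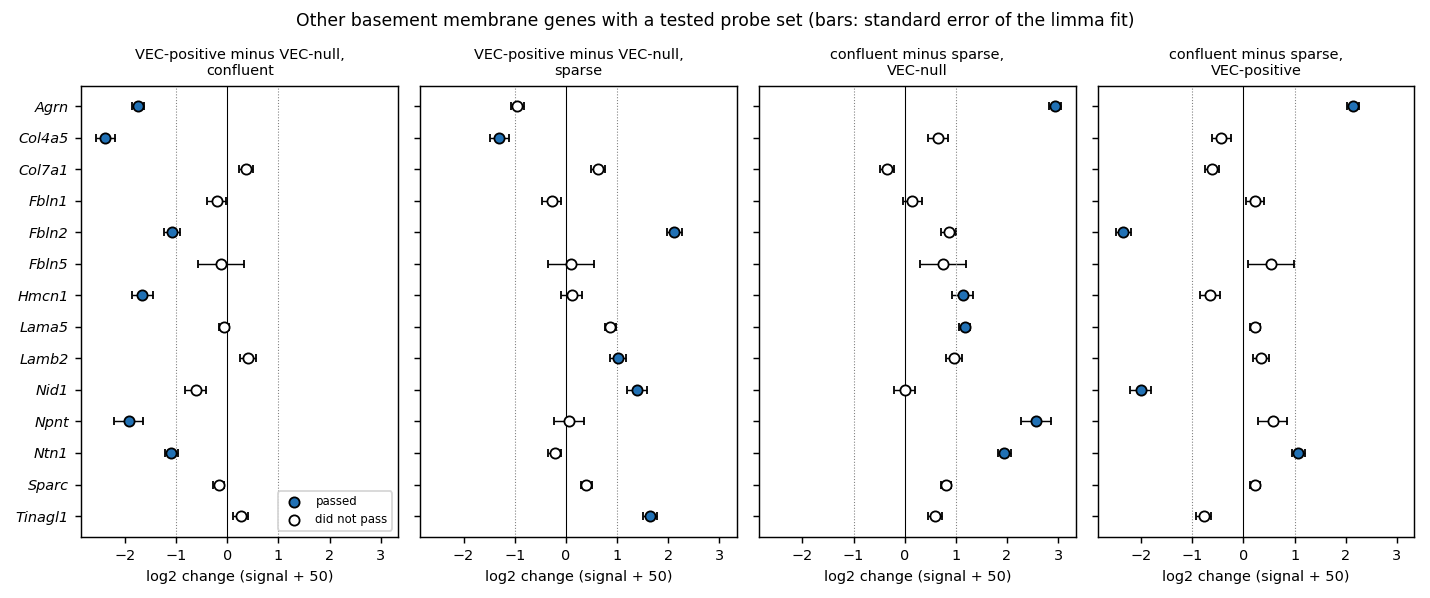
Log2 change of the 14 tested genes of the wider basement membrane list in the 4 comparisons, with the SE of the limma fit as bars and filled points for genes that passed. In confluent cells every gene that passed between the lines was lower in VEC-positive cells, and Nid1 and Fbln2 were higher in them when sparse.

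Among 18 tested receptors for basement membrane, 2 were higher and 1 lower in confluent VEC-positive cells, where 4.6% and 3.46% of all genes were, so that these counts do not set the receptors apart. The integrin chains Itgb4 (2.41) and Itga7 (1.28) were higher and Itga2 (-1.18) was lower (limma adjusted p 2.2e-05, 0.00014 and 0.0054). Another tested Itga7 probe set differed less, with 371 ± 2.9 in confluent VEC-null and 551 ± 132 in confluent VEC-positive cells (SD, n = 2). Itgb4 passed the filter only through confluent VEC-positive cells and Itga2 only through confluent VEC-null cells, so their differences are partly set by it. In sparse cells 1 was higher, the collagen receptor Ddr1 (1.46), where 5.9% of all genes were. With confluence 3 of 18 rose in VEC-null cells (background 9.22%), Itga6 (2.49), the laminin receptor Bcam (2.02) and Itga2 (1.06). In VEC-positive cells 4 rose (background 8.63%) and 3 fell (background 7.31%). Bcam (1.88), Itgb4 (1.87) and Itga6 (1.33) were the largest rises and Rpsa (-1.6), Ddr1 (-1.21) and Itga3 (-1.15) the falls. Another tested Itga3 probe set fell less, from 528 in sparse to 256 in confluent VEC-positive cells. Sdc3 was counted by its chip A probe set, with group means of 104 to 161. Its chip B probe set read 1049 and 3561 in sparse and confluent VEC-null cells, and 2550 and 4790 in VEC-positive cells. Itga6, the alpha chain of the main laminin-binding integrins, read 507 ± 76.2 when sparse and 3066 ± 163 when confluent in VEC-null cells, while VEC-positive cells gave 958 ± 62.4 and 2492 ± 148 (SD, n = 2).

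Among 16 tested genes of collagen folding, modification and cross-linking, 1 was higher and 0 lower in confluent VEC-positive than VEC-null cells (background 4.6% and 3.46%). When sparse, 1 was higher and 1 lower (background 5.9% and 4.37%). These counts do not set the list apart. The lysyl hydroxylase Plod2 was higher in confluent VEC-positive cells (1.23), the prolyl 3-hydroxylase P3h1 was higher in sparse ones (1.44) and P3h2 lower (-1.11). With confluence Plod1 (2.26) and the peroxidasin Pxdn (1.56), which cross-links collagen IV, rose in VEC-null cells, and Sec24d (-1.58) and P3h2 (-1.24) fell. In VEC-positive cells Plod1 (1.76) rose, and the prolyl 4-hydroxylase chain P4ha1 (-1.44) and Sec24d (-1.25) fell. Another tested Plod1 probe set rose less, from 275 to 655 in VEC-null and from 206 to 306 in VEC-positive cells. The median over the list was between -0.23 and 0.24 in these 4 comparisons.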

How the data were processed

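Each of the 4 conditions was 1 cRNA sample on 2 copies of chips A (MG_U74Av2) and B (MG_U74Bv2). The values deposited by the authors are MAS5 signals, which are linear intensities scaled to 500 on each array, per the labels; the MAS5 version is not stated in the sources used here. A median normalisation that the series text mentions could not be seen in the values. Genes came from the platform annotation, and 21367 probe sets matched RefSeq by Entrez identifier with 0 symbols changed.

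Signals were tested as log2(signal + 50). Kept probe sets had a group mean above the chip's median (160 on chip A, 231 on chip B), which left 14301. Models over 4 groups were fitted per chip with limma 3.58.1 (R 4.3.3, eBayes with trend), and p values were adjusted by Benjamini-Hochberg over kept probe sets of both chips. All p values in the text are from limma. A gene was represented by its chip A probe set before chip B, then by the highest mean signal. The fit was tested on simulated data. Nearest genes are the 20 tested genes on each side, or fewer where the chromosome ended, with 24 in all for Lamb3 and 38 for Nid2.

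The genes and lists were chosen with earlier results of these data known. All probe sets of the 10 genes are reported; other lists give up to 3 genes per direction, and similar genes are the 3 with the highest r. Copy numbers did not pair the arrays: deviations of same-numbered copies correlated between -0.089 and 0.078 on chip A. Alternatives were other offsets, filters, normalisations, copies left out, a copy block and chromosome medians. Interval precision is limited by the 2 copies per group.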

Additional observations from a re-analysis of the deposited data

Results flagged for a closer look

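For 5 of the 10 genes the density response differed between the lines by the test of the difference itself, where 12.7% of 9224 tested genes passed. On the log2 scale, the response of VEC-positive minus that of VEC-null cells was 4.35 for Lamb3, 2.46 for Col15a1, -1.92 for Nid2, -1.15 for Col4a2 and -1.05 for Lamb1. These 5 are not equally firm. Lamb3 passed the filter on low signal only through confluent VEC-positive cells. Col4a2 fell to -0.70 after quantile normalisation, and the other Lamb1 probe set gave -0.42 (limma adjusted p 0.19). The group of 5 compares 4 cRNA samples, 1 per condition, and the cause was not tested.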

How the results depend on the processing

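Each value was recomputed under every alternative, and apart from the counts of genes that passed, 1102 values kept direction and side of the threshold, 17 lost the call, 5 gained it and 16 changed sign. The count in sparse cells between the lines fell from 2 to 1 when the chromosome median or the median of the nearest genes was taken off, and the count for density in VEC-null cells fell from 5 to 3 with an offset of 200. With 1 copy left out, the count for VEC in the additive model ranged from 0 to 1 (Lamb3, without the second copy of sparse VEC-positive cells), that for density in either line from 4 to 5 and that for the difference of responses from 4 to 5. With the copy number as a block, the counts were 4 and 2 between the lines, 5 and 5 for density and 5 for the difference, as without it. With an offset of 200, genes that passed over the whole array numbered 414 against 743 and 510 against 947 between the lines (confluent, sparse), 995 against 1573 and 905 against 1470 for density (VEC-null, VEC-positive), and 695 against 1173 for the difference.

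Every value that changed sign was at most 0.33 in size as reported. Lama4 between the lines was 0.02, 0.01 and 0.01 in confluent cells (quantile, median centring, nearest genes taken off) and -0.30 in sparse cells with the chromosome median taken off, and it ranged from -0.01 to 0.17 with a copy left out. In sparse cells Lamb1 was 0.15 with the nearest genes taken off, and with a copy left out Lamb3 ranged from -0.15 to 0.34 and Nid2 from -0.28 to 0.02. With median centring Col4a1 was -0.06 for density in VEC-positive cells and Col18a1 was -0.03 for the difference of responses, which ranged from -0.10 to 0.15 with a copy left out. For VEC in the additive model, Lama4 ranged from -0.01 to 0.08 and Lamc1 from -0.03 to 0.09, with 0.00 among its values. Median centring moved the median of all genes for density in VEC-null cells to -0.11. The cause was not tested. Precision is limited by 2 technical copies, and signals near the filter level carry little over background.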

Other observations

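Of 21 genes listed for the degradation of basement membrane or its inhibition, 17 were on the array and 10 were tested. With confluence 6 of 10 rose in VEC-null cells, where 9.22% of all genes rose. They were led by the membrane-bound metalloproteinase Mmp14 (log2 2.8, limma adjusted p 7e-08), Adamts4 (2.62, 1e-06) and the plasminogen activator Plat (2.24, 1.4e-06). In VEC-positive cells Adamts4 (2.02) and Mmp14 (1.75) rose and the inhibitor Timp1 (-1.77) fell. In sparse cells 4 of 10 were higher in the VEC-positive line (background 5.9%), among them the inhibitors Timp1 (1.72), Timp3 (1.59) and Timp2 (1.56). When confluent, Plat (-2.09) and the cathepsin Ctsl (-1.14) were lower in that line. Timp1 had a signal of 6418 ± 202 in sparse VEC-positive cells and group means of 1847 to 2144 in the others (SD, n = 2). The epithelial keratin Krt19 was also highest there, at a mean of 905 against 3.9 to 5.6. The summed signal of all 7 epithelial markers was 1276 to 1437 there and 385 to 688 in the others, and their part in these differences was not tested.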
